A study of Mus musculus with 8 samples.

Results

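The 9 genes described here, Elovl4, Cers3, Cyp4f39, Pnpla1, Ugcg, Abca12, Smpd1, Alox12b and Aloxe3, build, move and finish the ceramides of the epidermal barrier. They were chosen by name, with earlier results of these data known, so the counts of calls among them are a description only. They are 9 of the 23432 gene symbols in the deposited count files, and all 9 passed the filter on low counts in every comparison. Polyadenylated RNA was sequenced from mouse skin epithelium in 2 experiments, with 2 libraries in each of 4 groups. At E16.5, control was compared with MOF cKO (MOF fl/fl with Krt14-Cre, an epithelial Cre line; MOF, encoded by Kat8, is the histone H4 lysine acetyltransferase), and all E16.5 embryos carried Krt14-H2BGFP, by which back skin epithelial cells were sorted by FACS. At P0.5, control was compared with Kansl1 cKO (Kansl1 fl/fl with Krt14-Cre, which removes an exon of this subunit of the NSL complex of MOF), and the RNA came from whole epidermis separated with dispase, so any cell on the sheet could contribute. Control animals were littermates per the methods of the study, and the labels give their genotype only as control. The background was mixed C57Bl/6J and CD-1, and nothing in the labels says which libraries came from which litter. The p-values therefore measure the spread between these libraries only.

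The barrier of the skin is a stack of dead cornified cells set in sheets of lipid. Keratinocytes of the granular layer elongate fatty acids to very great lengths, join them to sphingoid bases as ceramides, cap them with linoleic acid, load them into lamellar bodies as glucosylceramides and sphingomyelin, and secrete them. Lipoxygenases then oxidise the linoleate so that the lipid can be attached to the cornified envelope. Loss of many of these enzymes causes ichthyosis, a scaling disorder with a leaky skin.

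Promoter sequences are shown for Elovl4 and Abca12, which rose in MOF cKO, and for Smpd1, which fell. They are the 250 bases before the RefSeq transcription start on build GRCm38.p6, written 5′ to 3′ on the strand of the gene, at chr9:83806306-83806555 (minus strand), chr1:71414911-71415160 (minus strand) and chr7:105554110-105554359 (plus strand). Capitals mark the GC box (GGGCGG) and the CCAAT box, each on either strand.
Elovl4: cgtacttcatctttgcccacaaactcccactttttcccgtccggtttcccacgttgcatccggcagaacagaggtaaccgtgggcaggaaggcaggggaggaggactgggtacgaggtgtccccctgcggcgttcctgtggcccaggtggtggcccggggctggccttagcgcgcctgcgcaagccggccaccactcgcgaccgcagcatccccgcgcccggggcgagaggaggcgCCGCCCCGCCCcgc
Abca12: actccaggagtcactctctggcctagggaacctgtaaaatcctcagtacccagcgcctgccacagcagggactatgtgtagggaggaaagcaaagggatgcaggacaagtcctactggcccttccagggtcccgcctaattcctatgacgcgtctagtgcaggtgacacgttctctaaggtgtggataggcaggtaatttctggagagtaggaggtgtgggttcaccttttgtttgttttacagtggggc
Smpd1: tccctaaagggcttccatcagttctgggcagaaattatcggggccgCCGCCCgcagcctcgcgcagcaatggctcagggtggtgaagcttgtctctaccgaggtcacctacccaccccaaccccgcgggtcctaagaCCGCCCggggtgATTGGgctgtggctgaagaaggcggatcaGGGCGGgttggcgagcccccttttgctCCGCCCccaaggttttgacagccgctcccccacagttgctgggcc

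A promoter entry was found for 8 of the 9 genes, all but Aloxe3. Within 250 bases before to 50 bases after the start, the CpG count was 53 in Ugcg, 35 in Elovl4, 16 in Smpd1, 15 in Alox12b, 11 in Cyp4f39, 7 in Cers3 and 6 in both Pnpla1 and Abca12, against a median of 7 over 32851 mouse promoters. The genes that rose in MOF cKO thus differed in CpG count: 93% of promoters held fewer CpGs than that of Elovl4 and 43.6% fewer than that of Abca12. GC boxes were found in 4 of the 8 promoters, 4 copies in Smpd1, 3 in Alox12b and 2 in Elovl4 and in Ugcg, and in 35.7% of all promoters. The 2 copies in Elovl4 overlap each other by 1 base. CCAAT was found in 3 of the 8 (Elovl4, Pnpla1 and Smpd1; 37.4% of all promoters) and CACGTG in 1, Elovl4 (7.15%). The AP-1 motif TGANTCA, the Grainyhead motif AACCNGTT and the TATA box TATAAA were in 0 of the 8, and in 7.81%, 2.09% and 13.6% of all promoters. A match is a description of these letters and not a site of binding.

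The genes lie on 6 chromosomes of mm10 (GENCODE M21). Elovl4 is at 9:83778692-83806277 (minus strand), Abca12 at 1:71242276-71414910 (minus strand) and Ugcg at 4:59189257-59222833. Cers3 (7:66743504-66823691) and Smpd1 (7:105554360-105558389) are on chromosome 7, Cyp4f39 (17:32452723-32493320) and Pnpla1 (17:28858411-28890309) on chromosome 17, all on the plus strand. Aloxe3 (11:69125896-69149115) and Alox12b (11:69156989-69169792) are plus-strand neighbours with 7873 bp between them. Cyp4f39 and both lipoxygenases have close relatives in the genome, so reads of a stretch they share may have been assigned to either or left out, which makes their levels less certain.

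The libraries held between 9108709 and 27561688 counts on genes, and 1 count stood for 0.0300 to 0.122 CPM (counts scaled to a common library size with TMM factors over all 8 libraries), the unit of the levels given for each library. Krt14 was at 8964 to 11310 CPM at E16.5 and 4787 to 6529 CPM at P0.5, as the epithelial labels state. Kat8 was at 13.3 and 13.6 CPM in E16.5 control and 11.5 and 12.8 CPM in MOF cKO (log2 fold change -0.14, SE 0.179, adjusted p = 0.554 by edgeR), and Kansl1 at 43.4 and 51.8 CPM in P0.5 control and 34.6 and 33.4 CPM in Kansl1 cKO (-0.52, SE 0.167, adjusted p = 0.242). Gene counts do not separate a deleted exon from the rest, and Kat8 overlaps Prss8 on the opposite strand, so neither value is a test of the deletion.

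In E16.5 MOF cKO, 4 of the 9 genes rose and 1 fell. Elovl4, Cyp4f39, Abca12 and Aloxe3 were 3.85 to 7.19 times their control level, and Smpd1 was 3.71 times lower. Genes were called by edgeR's quasi-likelihood test over all 13956 genes tested, where the fold change passed 1.5 and the adjusted p did not pass 0.01. Of all genes tested, 10.0% were called higher and 9.59% lower, 19.6% in either direction. The median log2 fold change was 1.603 over the 9 genes and -0.02 over all genes tested. Both MOF cKO libraries lay above both control libraries for 7 genes and below them for Smpd1, and the groups overlapped for Alox12b. The share of all genes with groups apart in this way was not counted, so this order is a description only. Of the 13956 genes tested, 6820 had an unadjusted p under 0.05 by edgeR.

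**Figure D1:**
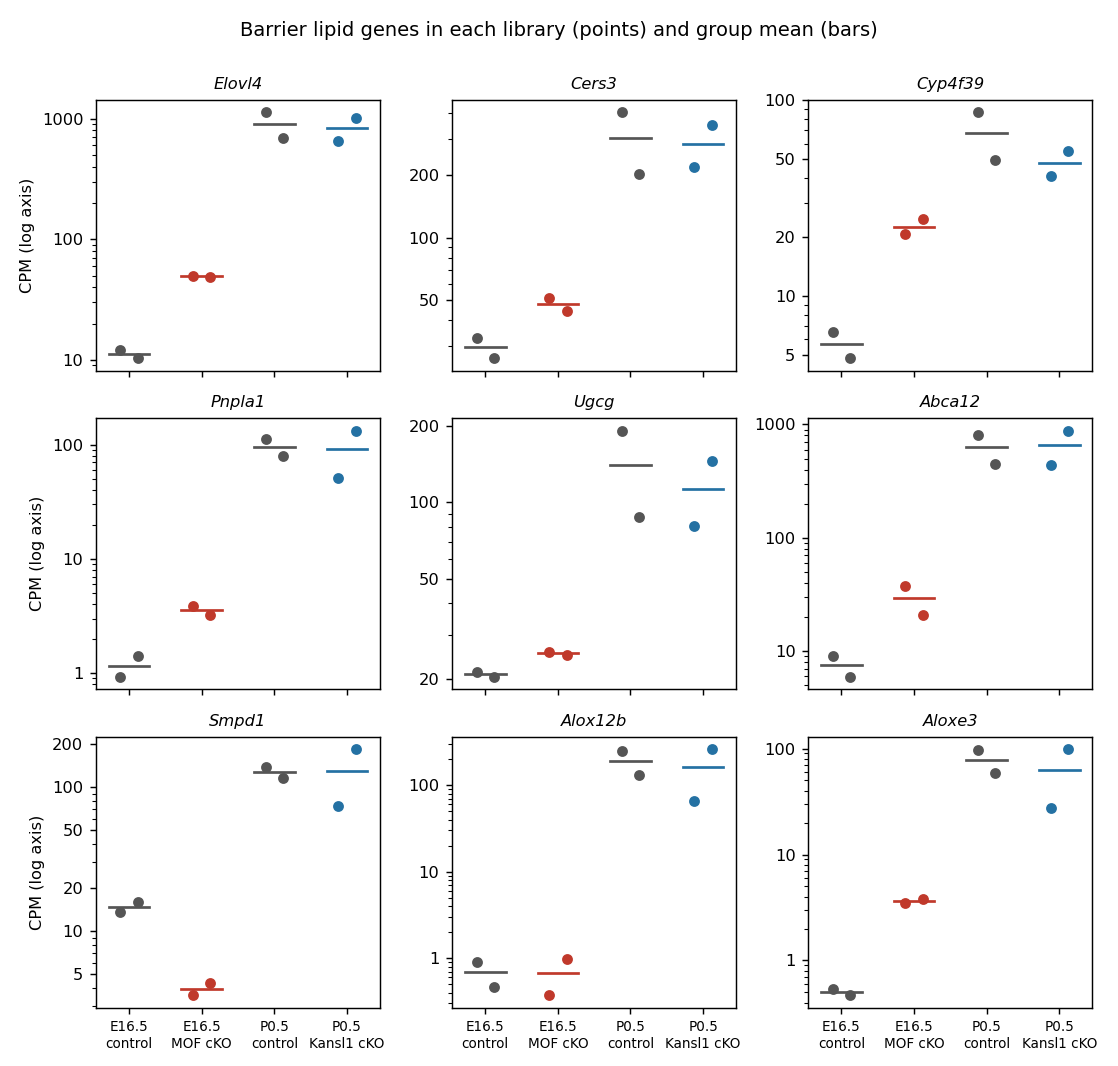
Level of each of the 9 genes in CPM (log axis, a separate scale for each gene) in the 2 libraries (points) of each of the 4 groups, with the group mean as a bar. Both MOF cKO points sit above both E16.5 control points in 7 panels and below them in the Smpd1 panel, and all P0.5 points sit above all E16.5 points in each of the 9 panels. The share of all genes with either order was not counted, so both are a description only.

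Both genes that make the acyl chain rose. Elovl4, the elongase that makes ultra-long fatty acids, was at 12.04 and 10.3 CPM in control and 50.1 and 49.2 CPM in MOF cKO. Its replicates differed little beside the gap between the groups. The log2 fold change was 2.15 (SE 0.147, adjusted p = 0.000263). Cyp4f39, the mouse counterpart of the human cytochrome P450 that hydroxylates the end of the ultra-long chain, was at 6.53 and 4.81 CPM in control and 20.7 and 24.6 CPM in MOF cKO. Its lowest MOF cKO library was above its highest control library by a wide margin, with a log2 fold change of 1.99 (SE 0.222, adjusted p = 0.000876).

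Genes that join and cap the ceramide did not reach the threshold. Cers3, the ceramide synthase for ultra-long acyl chains, was at 33.0 and 26.2 CPM in control and 51.2 and 44.2 CPM in MOF cKO. The groups did not overlap, but the log2 difference of 0.69 (SE 0.159, 95% interval 0.32 to 1.06) had an adjusted p of 0.0130 by edgeR. It was called without control replicate 1 (0.87, adjusted p = 0.00225) and by DESeq2 (0.71, adjusted p = 0.00120). Pnpla1, which transfers linoleic acid onto the hydroxylated ceramide, was at 0.929 and 1.403 CPM in control and 3.89 and 3.20 CPM in MOF cKO. Its log2 difference of 1.603 (SE 0.477, 95% interval 0.49 to 2.72) had an adjusted p of 0.0334. Ugcg, which adds glucose to ceramide, was at 21.4 and 20.5 CPM in control and 25.7 and 24.99 CPM in MOF cKO. That is a log2 difference of 0.27 (SE 0.140, 95% interval -0.06 to 0.60, adjusted p = 0.162), and it took the other sign, -0.03, when libraries were scaled by their size alone. Under that scaling the median of all genes moved from -0.02 to -0.32, and the 5 called genes kept their calls.

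The transporter and the sphingomyelinase went opposite ways. Abca12, the transporter that loads lipid into lamellar bodies, was at 9.17 and 5.94 CPM in control and 37.4 and 21.1 CPM in MOF cKO. Its MOF cKO libraries differed more from each other than those of Elovl4 did, but both were above both controls, with a log2 fold change of 1.94 (SE 0.320, adjusted p = 0.00359). Smpd1, the acid sphingomyelinase that releases ceramide from sphingomyelin, was at 13.6 and 15.9 CPM in control and 3.57 and 4.37 CPM in MOF cKO. Both MOF cKO libraries were thus far below both controls, and Smpd1 fell by 1.89 on the log2 scale (SE 0.234, adjusted p = 0.00124). It was the only one of the 9 genes called lower, and it kept the call in 12 of 12 alternative settings, as did Elovl4, Cyp4f39 and Abca12.

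The neighbouring lipoxygenases were both under 1 CPM in E16.5 control. Aloxe3, which acts on the hydroperoxide that Alox12b makes, had 18 and 14 counts in the control libraries against 76 and 97 after MOF loss, or 0.539 and 0.467 CPM against 3.52 and 3.79 CPM. Its log2 fold change of 2.85 was the largest of the 9 in these libraries but had a wide error (SE 0.509, 95% interval 1.65 to 4.04, adjusted p = 0.00491). The call was lost without control replicate 2 (2.75, adjusted p = 0.0103) and without MOF cKO replicate 2 (2.79, adjusted p = 0.0116), and in a fit over all 8 libraries (2.84, adjusted p = 0.0120), with the size little moved. Alox12b, which oxidises the linoleate of the ceramide, had 30 and 14 counts in the control libraries against 8 and 25 after MOF loss. These were 0.899 and 0.467 CPM against 0.371 and 0.976 CPM, and the groups overlapped. Its 95% interval, -1.92 to 1.89 on the log2 scale, is wider than that of any other of the 9 genes, and a difference was not detectable at this depth (log2 difference -0.02, SE 0.811, adjusted p = 0.991).

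Markers of the upper layers and of other cell types also differed between these groups, and their part in the values of the 9 genes was not tested. The summed level of 6 spinous markers was 3160 to 3884 CPM in control and 8528 to 9335 CPM in MOF cKO, with 5 of the 6 called higher. For 7 granular markers it was 18.4 to 18.5 CPM in control and 50.2 to 52.6 CPM in MOF cKO, with 2 of the 6 tested called higher. The 7 basal markers summed to 32930 to 34310 CPM and 28870 to 35460 CPM, with 1 called lower. The 10 macrophage markers summed to 18.8 to 42.3 CPM and 94.96 to 123 CPM, with 7 called higher. Those 7 had 0 to 25 counts in each E16.5 control library and entered this fit through their MOF cKO counts. Their calls could thus hardly go the other way and carry little weight. Of the 8 periderm markers 2 were called higher (Krt6a and Grhl3) and 1 lower (Krt8). The study found KRT6 in suprabasal layers of MOF cKO and took it to reflect a stressed state, so Krt6a does not stand for periderm alone. Of the 6 hair follicle markers 3 were called lower, and of the 4 endothelial markers 1 was called higher. The 6 fibroblast markers summed to 840.9 to 1433 CPM in control and 1418 to 1978 CPM in MOF cKO, with a median log2 difference of 1.06. By edgeR 0 of them were called, but all 6 had an unadjusted p under 0.05, 5 of the 6 with a higher value in MOF cKO. Of the 6 melanocyte markers 0 were called and 1 had an unadjusted p under 0.05. No marker was at 0 over a whole group. In bulk libraries, fewer cells of a type and less RNA per cell cannot be told apart.

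In P0.5 Kansl1 cKO, 0 of the 9 genes were called by edgeR or by DESeq2, and 0 had an unadjusted p under 0.05. The background was low too: edgeR called 0 of 13031 genes (0%), DESeq2 called 0.775%, and 15.7% had an unadjusted p under 0.05. The log2 differences ran from -0.53 for Cyp4f39 to 0.04 for Abca12, with a median of -0.16, and the adjusted p-values from 0.429 to 0.993. The groups overlapped for each of the 9 genes. The intervals are wide, so the test does not show that the levels were alike. For Elovl4, at 1136 and 687 CPM in control and 652 and 1011 CPM in Kansl1 cKO, the 95% interval was -0.89 to 0.56. For Smpd1, at 137 and 116 CPM in control and 73.3 and 183 CPM in Kansl1 cKO, it was -0.94 to 0.92. For Cyp4f39, at 86.9 and 49.2 CPM in control and 40.8 and 55.1 CPM in Kansl1 cKO, it was -1.23 to 0.17. The interval was -0.89 to 0.96 for Abca12 and -1.64 to 0.97 for Aloxe3. For each gene called in MOF cKO, a change of the size seen there lay outside its interval in Kansl1 cKO.

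**Figure D2:**
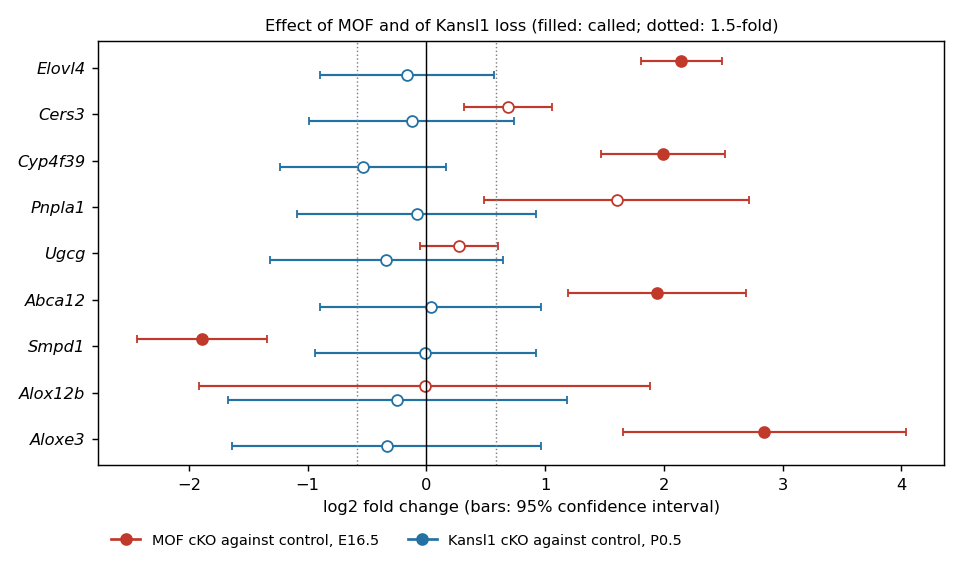
Log2 fold change of each gene in MOF cKO at E16.5 (red) and Kansl1 cKO at P0.5 (blue), each against its own control, with 95% confidence intervals as bars. Filled circles are called genes (adjusted p up to 0.01, fold change past the dotted lines at 1.5-fold): 5 for MOF cKO and 0 for Kansl1 cKO.

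The P0.5 libraries of a genotype differed from each other in these genes. In each of the 9, control replicate 1 and Kansl1 cKO replicate 2 lay above control replicate 2 and Kansl1 cKO replicate 1. The share of all genes with this order was not counted, so it cannot be called particular to the 9. Control replicate 1 was 1.18 to 2.18 times control replicate 2, and Kansl1 cKO replicate 2 was 1.35 to 4 times replicate 1. Between the Kansl1 cKO libraries the largest ratios were those of the lipoxygenases, and between the control libraries those of Ugcg (2.18) and Cers3 (2). Alox12b was at 247 and 131 CPM in control and 65.2 and 261 CPM in Kansl1 cKO. Aloxe3 was at 97.3 and 58.3 CPM in control and 27.6 and 98.7 CPM in Kansl1 cKO. Without Kansl1 cKO replicate 2, the log2 difference was -1.57 for Alox12b and -1.53 for Aloxe3, from a lone library assumed to vary like the controls. The remaining genes also varied with library: Pnpla1 was at 111 and 79.2 CPM in control and 51.0 and 133 CPM in Kansl1 cKO, and Abca12 at 811 and 451 CPM against 439 and 883 CPM. Ugcg was at 192 and 88.0 CPM against 80.4 and 146 CPM, and Cers3 at 403 and 201 CPM against 219 and 348 CPM.

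**Figure D3:**
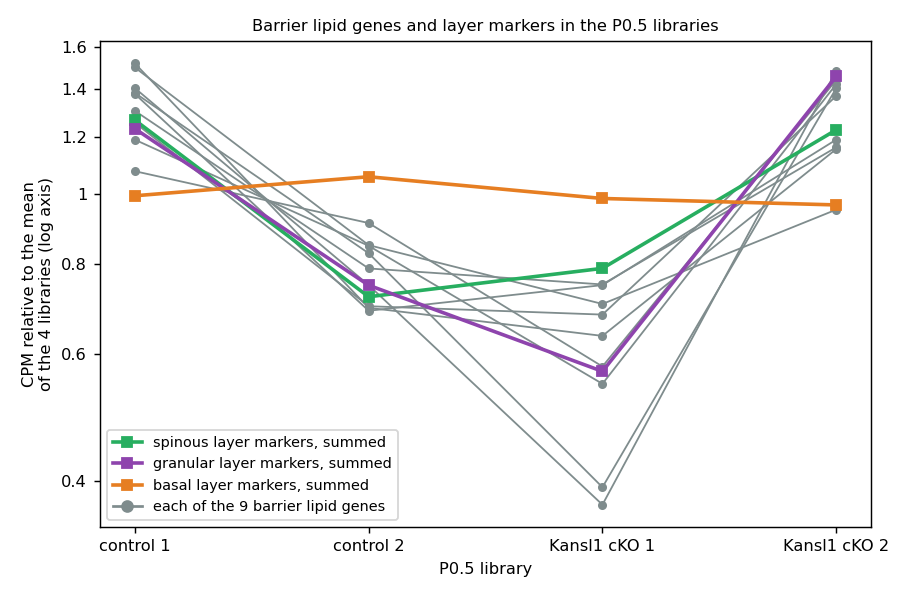
CPM of each of the 9 genes (grey) and summed CPM of spinous, granular and basal layer markers in the 4 P0.5 libraries, each divided by its mean over those libraries (log axis). The 9 genes and the spinous and granular markers are high in control 1 and Kansl1 cKO 2, and the basal markers stay near 1.

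The layer markers followed the same order in these libraries. The spinous sum was 78470 and 44620 CPM in control and 48860 and 76060 CPM in Kansl1 cKO, and the granular sum 17480 and 10600 CPM in control and 8050 and 20660 CPM in Kansl1 cKO. The basal sum was between 19200 and 21010 CPM in the 4 libraries. The granular marker Lor was at 4728 and 2901 CPM in control and 942 and 5771 CPM in Kansl1 cKO. Sums for some other cell types lay apart between the genotypes. The melanocyte markers summed to 492.5 to 547 CPM in control and 1079 to 1208 CPM in Kansl1 cKO. The macrophage markers summed to 191 to 232 CPM and 302 to 325 CPM, and the fibroblast markers to 1174 to 1864 CPM and 806 to 1018 CPM. By edgeR 0 of the markers in these lists were called, but neither was any other of the 13031 genes. An unadjusted p under 0.05 was reached by 6 of 6 melanocyte, 5 of 6 fibroblast and 4 of 10 macrophage markers, against 15.7% of all genes. Among the layer markers it was 1 of 7 basal, 0 of 6 spinous and 0 of 7 granular. What share of the library differences in the 9 genes goes with any of these markers was not tested.

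The effect of MOF loss and that of Kansl1 loss were then set against each other in a fit over all 8 libraries. The difference between the effects was called for 2 of the 9 genes, Cyp4f39 (log2 2.50, SE 0.401, adjusted p = 0.00717) and Elovl4 (2.28, SE 0.370, adjusted p = 0.00751). Over all 14565 genes, 2.92% were called, 1.76% with the MOF effect higher and 1.17% with it lower. Both calls were lost, with the sign and most of the size kept, when any library but P0.5 control replicate 2 or Kansl1 cKO replicate 2 was left out. Elovl4 then stood at 1.87 without P0.5 control replicate 1 (adjusted p = 0.0189), 1.99 without Kansl1 cKO replicate 1 (0.0152), and between 2.26 and 2.44 without an E16.5 library, and Cyp4f39 at 2.03, 2.28 and 2.44 to 2.72. The difference was 3.15 for Aloxe3 (adjusted p = 0.0391) and -1.91 for Smpd1 (adjusted p = 0.0395), past 0.05 but not 0.01. Smpd1 was called without Kansl1 cKO replicate 1 (-2.43, adjusted p = 0.00236), and Aloxe3 (4.32, adjusted p = 0.00136) and Pnpla1 (2.49, adjusted p = 0.00564) without Kansl1 cKO replicate 2. With all libraries the difference for Pnpla1 was 1.66 (adjusted p = 0.108), for Abca12 1.88 (0.0599), for Cers3 0.78 (0.267), for Ugcg 0.58 (0.465) and for Alox12b 0.22 (0.923). Stage and isolation of the tissue differed with the deleted gene here and cannot be told apart from it.

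All 9 genes were higher in P0.5 control than in E16.5 control, by 6.67-fold for Ugcg to 271-fold for Alox12b. Of all genes tested, 19.6% were called higher and 20.6% lower, 40.2% in either direction, and the median log2 difference was 6.35 over the 9 genes and -0.12 over all genes. Stage, isolation (sorted back skin cells against whole epidermis) and experiment differ together between these groups and cannot be told apart. The steps were largest for the lipoxygenases. Alox12b rose by a log2 of 8.08 (SE 0.799) and Aloxe3 by 7.24 (SE 0.674), from under 1 CPM in both E16.5 control libraries. Abca12 (6.38, SE 0.506), Pnpla1 (6.35, SE 0.5001) and Elovl4 (6.35, SE 0.323) rose by nearly the same amount, 83.2-, 81.6- and 81.4-fold. Cyp4f39 (3.58, SE 0.307), Cers3 (3.35, SE 0.343), Smpd1 (3.10, SE 0.368) and Ugcg (2.74, SE 0.371) rose less. The adjusted p-values lay between 1.17e-06 and 0.000258 by edgeR, and each gene was called in 16 of 16 alternative settings. Granular markers summed to between 18.4 and 18.5 CPM in E16.5 control and between 10600 and 17480 CPM in P0.5 control. Macrophage markers summed to between 18.8 and 42.3 CPM and between 191 and 232 CPM, and melanocyte markers to between 17.5 and 42.8 CPM and between 492 and 547 CPM. The part of these markers in the values of the 9 genes was not tested.

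The levels in MOF cKO stayed below those of P0.5 control. In 9 of 9 genes both MOF cKO libraries were below both P0.5 control libraries, and the share of all genes with this order was not counted. Stage, isolation and experiment differ between these groups along with the deleted gene and cannot be told apart. The MOF cKO mean was 33.25% of the P0.5 control mean for Cyp4f39, the highest share, and 0.356% for Alox12b, the lowest. In E16.5 control the shares ran from 0.361% to 14.9%.

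Per length of exon, the order of the genes changed between stages. In E16.5 control, Cers3 led with 9.08 ± 1.47 CPM per kb (SD, n = 2), followed by Smpd1 (4.42 ± 0.472), Ugcg (4.02 ± 0.125) and Elovl4 (3.70 ± 0.402), whose libraries overlapped from neighbour to neighbour. Aloxe3 was lowest with 0.0787 ± 0.00793 CPM per kb. In MOF cKO, Elovl4 led with 16.4 ± 0.215 CPM per kb, above Cers3 with 14.7 ± 1.52, and Smpd1 was the sixth with 1.19 ± 0.171. In P0.5 control, Elovl4 stood at 301 ± 105 CPM per kb, its lowest library (227) above the highest of Cers3 (124). Alox12b, by its mean above only Pnpla1 and Aloxe3 in E16.5 control, had libraries there that overlapped those of Pnpla1. In P0.5 control it was the third with 77.8 ± 33.5 CPM per kb, its libraries overlapping those of Cers3 (92.7 ± 43.7) and of Abca12 (42.6 ± 17.2).

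The profiles of some of the 9 genes over the 8 libraries ran close together. As a measure of likeness, the log2 CPM of each gene was centred on its mean over the 8 libraries, and the root mean square difference between profiles was taken. Among the 9 genes it was smallest between Elovl4 and Abca12 (0.29), Cers3 and Ugcg (0.33) and Elovl4 and Pnpla1 (0.37), and largest between Cyp4f39 and Alox12b (2.85). The neighbouring lipoxygenases were 1.54 apart. Over all genes tested, those nearest to Elovl4 were Slc6a14 (0.19), an amino acid transporter, and Casp14 (0.19), the caspase of cornifying keratinocytes. Casp14 was also among the nearest to Pnpla1 (0.23) and Abca12 (0.27), as was Nlrp10 (0.23 and 0.26). Nearest to Cers3 were Prdx5 (0.18) and Dmkn (0.18), to Ugcg Uchl3 (0.14) and Clu (0.15), and to Cyp4f39 Ptgs1 (0.20) and Tmem140 (0.23). For Smpd1 they were Il1f10 (0.20) and Hsd17b14 (0.22), for Alox12b Cnfn (0.32) and Sdcbp2 (0.38), and for Aloxe3 Cpa4 (0.36) and Slc5a1 (0.37). The step between stages makes up most of these profiles, and the points share libraries, so the distances are a description only.

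Of 39 other genes of barrier lipid synthesis, listed by role with earlier results of these data known, 38 were in the files. In MOF cKO, 11 of the 35 tested were called higher and 0 lower by edgeR, against 10.0% and 9.59% of all genes, and their median log2 fold change was 0.25. The absence of lower calls depended on scaling and filter. With library size alone 9 were called higher and 4 lower, against 769 and 2743 of all genes. With every gene of at least 1 count the list gave 12 higher and 2 lower, and with upper-quartile factors 10 and 1. The roles differed in count. Of the genes of the lipid envelope and its secretion, 4 of 6 rose, with a median of 2.37. Tgm1, the transglutaminase that crosslinks the cornified envelope, was at 5.33 and 3.41 CPM in control and 64.2 and 59.1 CPM in MOF cKO (log2 3.81, SE 0.223, adjusted p = 0.000175). Ephx3, an epoxide hydrolase that acts after the lipoxygenases, was at 2.73 and 4.04 CPM in control and 21.7 and 17.7 CPM in MOF cKO (2.54, SE 0.258, adjusted p = 0.000698). Nipal4, an ichthyosis gene, was at 6.71 and 7.15 CPM in control and 33.9 and 44.9 CPM in MOF cKO (2.51, SE 0.188, adjusted p = 0.000349). For each of these the MOF cKO libraries were all above the controls. Of the genes of fatty acid activation and elongation 4 of 11 rose (median 0.25), of sphingoid base and ceramide synthesis 2 of 11 (median 0.16), and of sphingomyelin and glucosylceramide turnover 1 of 7 (median 0.02).

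**Figure D4:**
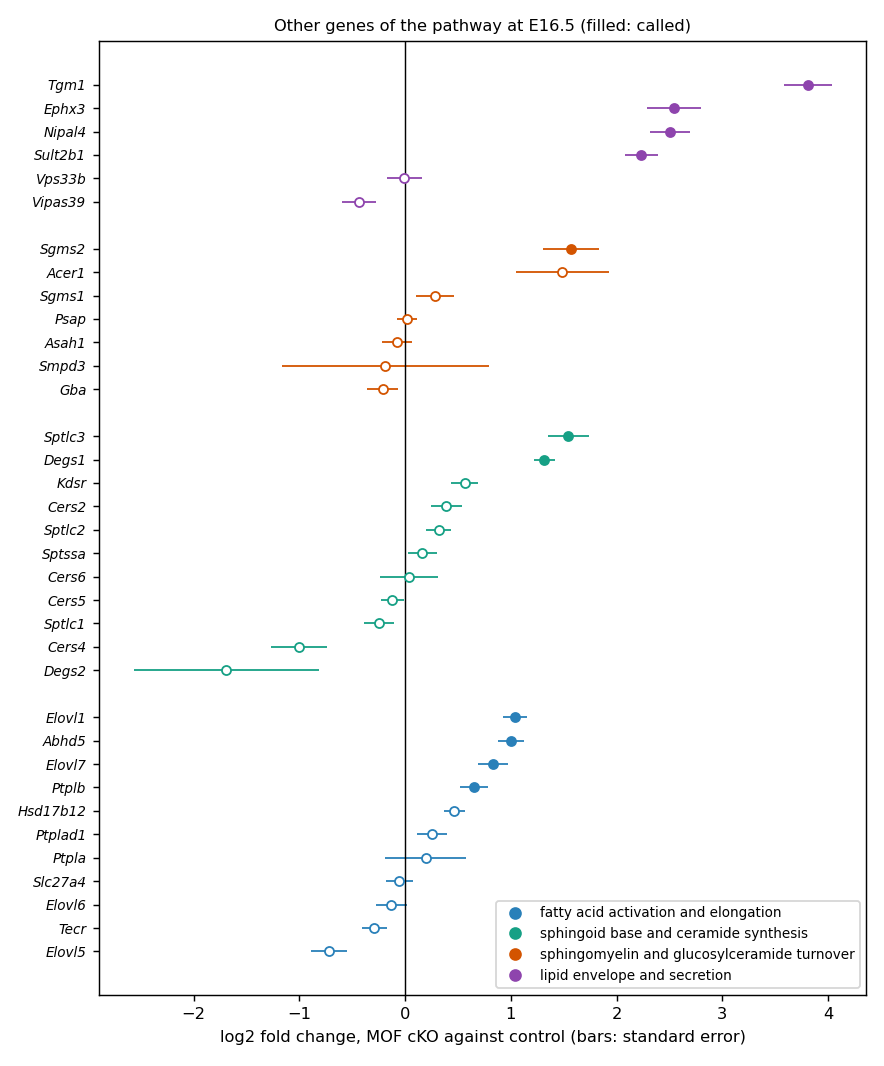
Log2 fold change in MOF cKO against control at E16.5 for the 35 other barrier lipid genes tested, grouped by role, with the standard error as a bar. Filled circles are the 11 genes called, all of them higher, with Tgm1 at 3.81 the farthest right.

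In Kansl1 cKO, 0 of the 38 other genes were called by edgeR, with 4 at an unadjusted p under 0.05, and their log2 differences ran from -0.58 to 1.34. Without Kansl1 cKO replicate 2 the count did not stay at 0, but that fit rests on a lone library assumed to vary like the controls. No share of all genes is set beside it. Between stages, 25 of the 38 were called higher in P0.5 control and 1 lower, against 19.6% and 20.6% of all genes tested, with a median log2 difference of 1.53. Among the 25, Elovl3, Fa2h and Sdr9c7 did not pass the filter on low counts in the E16.5 libraries alone. They entered this fit through their P0.5 counts, so their calls could hardly go the other way and carry little weight. Sdr9c7, a dehydrogenase that acts on the oxidised ceramides, had 8 and 3 counts in E16.5 control and 3195 and 3414 in P0.5 control (10.77, SE 0.523, adjusted p = 9.63e-07). Smpd3, a neutral sphingomyelinase, went from 0.929 and 0.534 CPM to 212 and 135 CPM (7.86, SE 0.848, adjusted p = 7.56e-05), and Acer1, an alkaline ceramidase, from 1.95 and 1.57 CPM to 147 and 151 CPM (6.39, SE 0.290, adjusted p = 6.87e-07). Cers2, a ceramide synthase for shorter chains than those of Cers3, was lower in P0.5 control, at 12.5 and 19.5 CPM against 41.0 and 39.4 CPM (-1.31, SE 0.236, adjusted p = 0.00128). The difference between the MOF and Kansl1 effects was called for 1 of the 38, Tgm1 (3.71, SE 0.528, adjusted p = 0.00500), a share near the 2.92% called over all genes. With a library left out this count was not stable, and each such fit rests on a lone library assumed to vary like the other groups.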

How the data were processed

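Polyadenylated RNA of 8 mouse libraries (2 in each of 4 groups) was sequenced with a strand-specific kit and paired reads. The authors deposited raw counts per gene from HTSeq, with no normalization. Their methods name HISAT2 on mm10, whereas the submitters' processing notes list TopHat2. The annotation and strand setting of the counting are not given in the sources used here. Rows naming no gene held 21.1% to 26.0% of reads and were left out.

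The counts were fitted with edgeR 4.0.16 (R 4.3.3): filterByExpr, TMM factors, and the quasi-likelihood test with Benjamini-Hochberg adjustment over all genes tested. The MOF and the Kansl1 comparison were each fitted on their own 4 libraries, and the comparison of controls and that of the effects over all 8. Calls required a fold change past 1.5 and an adjusted p of at most 0.01, as in the study. Alternatives were DESeq2 1.42.0, other scalings, filters, thresholds and sets of samples, the replicate number as a block, and leaving out each library. On simulated counts, 60.6% of 2-fold and 81.1% of 4-fold changes were recovered in the MOF comparison. The shares were 39.6% and 84.8% in the Kansl1 comparison, and 7.14% and 60.2% in the difference of the effects. They were taken over all changed genes tested and not split by level. Recovery at the levels of the genes described here, and with their step between stages, was not tested.

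Named were the 9 genes, the targeted genes, the 3 largest called rises and falls among the other barrier lipid genes, the 2 nearest profiles per gene and defining markers. Members and lists were chosen with earlier results of these data known. Depth ran from 9108709 to 27561688 counts, and replicates differed by 23.5 to 44.1 in chi-square per degree of freedom, so no library was a copy of another.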

Additional observations from a re-analysis of the deposited data

Results flagged for a closer look

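The effect of MOF loss at E16.5 differed from that of Kansl1 loss at P0.5, by a test of the difference itself, for 2 of the 9 genes, against 2.92% of all genes tested (1.76% with the MOF effect higher). For Elovl4 the log2 effects were 2.15 and -0.16, and their difference was 2.28 (adjusted p = 0.00751 by edgeR). For Cyp4f39 they were 1.99 and -0.53, with a difference of 2.495 (adjusted p = 0.00717). Both were called in 8 of 15 alternative settings, and both calls were lost with the replicate block (adjusted p = 0.0409 and 0.0403) and in 6 of the 8 fits that left out a library. Deleted gene, stage and isolation differ together and cannot be told apart. With 2 libraries in a group, no library could be tested as an outlier.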

How the results depend on the processing

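The 9 genes were called higher in P0.5 control in each alternative, and Elovl4, Cyp4f39, Abca12 and Smpd1 kept their calls in MOF cKO in each. The number of the 9 called in MOF cKO was 4 to 7 under other settings and 4 to 6 with a library left out. Signs turned only in values that were not called: in MOF cKO, Alox12b stood at 0.007 with DESeq2, 0.01 with RLE factors and 0.003 with 1 fit over all libraries, and Ugcg at -0.032 with library size alone. In Kansl1 cKO, Abca12 stood at -0.022 with upper-quartile factors and -0.021 with library size alone, and Smpd1 at 0.001 with every gene of at least 1 count and 0.018 with 1 fit. The causes were not tested.

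With a library left out, which leaves a lone library assumed to vary like the other groups, Alox12b in MOF cKO ranged from -0.882 to 0.53. In Kansl1 cKO the ranges were -0.518 to 0.252 for Elovl4, -0.575 to 0.468 for Cers3, -0.934 to 0.42 for Pnpla1, -0.833 to 0.339 for Ugcg, -0.558 to 0.528 for Abca12, -0.82 to 0.474 for Smpd1, -1.571 to 0.403 for Alox12b and -1.526 to 0.287 for Aloxe3, and 0 to 2 of the 9 were called. For the difference of the effects, Alox12b ranged from -0.521 to 1.525 and Ugcg from -0.09 to 1.058, and 0 to 4 were called.

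The difference of the effects was the least stable result: 6 of the 9 were called with every gene of at least 1 count, 4 at an adjusted p of 0.05 and 0 with the replicate block. Over all genes the calls also moved, from 1 to 2011 across such settings against 426 in the main fit. The counts for the 9 are thus a description only. Replicate numbers are shared by the labels, but nothing says that they mark a litter, and the correlation of same-numbered deviations was 0.193 at E16.5 and -0.107 at P0.5. With the replicate block, Elovl4 stood at 2.274 (adjusted p = 0.0409) and Cyp4f39 at 2.467 (adjusted p = 0.0403), and Cers3 was called in MOF cKO (0.695, adjusted p = 3.95e-06). The crossed pairing at P0.5, chosen after seeing the data, called 0 of the 9 and 1 of all genes.

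Over all genes, the MOF comparison gave 1395 higher and 1338 lower calls, and 769 and 2743 with library size alone; 4239 were called at an adjusted p of 0.05 and 4166 with the replicate block. The comparison of controls gave 2854 and 2997, 2144 and 4375 with library size alone, and 2772 in all with the replicate block. Library size alone gave 219 higher and 245 lower for the difference of the effects, against 256 and 170. Kansl1 calls were 0, 101 with DESeq2, 190 with every gene of at least 1 count and 5 to 273 with a library left out. Calls on the difference of the effects were 426, 1496 with DESeq2, 1 with the replicate block, up to 2011 otherwise and 81 to 423 with a library left out. Depth limits the values of Alox12b and Aloxe3 at E16.5, which rest on 8 to 97 counts a library.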
